A study of Homo sapiens with 6 samples.

Results

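The genes described here encode the SR proteins, the hnRNPs and the core proteins of the spliceosome. Their mRNA was measured by RNA-seq in SH-SY5Y cells, a human neuroblastoma line, after knockdown of PSF, the RNA-binding protein encoded by SFPQ. Members were the protein-coding rows whose symbols start with HNRNP, SNRP or U2AF, or with SRSF, SF3A, SF3B, PRPF or LSM before a number, together with TRA2A and TRA2B. This gave 86 genes of the 21301 in the table, 14644 of which are protein-coding, while 50 further rows with matching symbols have another biotype and are no members. The 86 genes fall into 14 SR genes (12 SRSF genes, TRA2A and TRA2B), 21 hnRNP genes and 51 snRNP and spliceosome core genes. The last group holds 8 Sm genes, 4 other SNRP genes, 9 SF3A and SF3B genes, 4 U2AF genes, 13 PRPF genes and 13 LSM genes.

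Cells received siControl or siPSF, each at 10 nM for 72 h, and 3 libraries were made per group, which the study calls biological triplicates. A single siRNA against PSF (#2) was used, so that the loss of PSF and other effects of that siRNA cannot be told apart. Per library, the deposited counts added up to at least 101540520 and at most 132420931. SFPQ, the targeted gene, was at 372, 356 and 401 CPM (counts scaled to library size, here normalised by the TMM method of edgeR) in the siControl libraries and at 209, 193 and 165 CPM in the siPSF libraries. All 3 siPSF libraries lay below all siControl libraries, and 50.2% of the level was left (log2 fold change -0.99, standard error 0.10, edgeR adjusted p = 9.5e-05). An edgeR adjusted p is a Benjamini-Hochberg value of edgeR's quasi-likelihood F-test, with all 19694 genes past the filter on low counts entering the correction, and a gene was called where it was under 0.05. Log2 fold changes are siPSF over siControl. Of 10 markers of neuroblastoma and sympathoadrenal cells, all 10 had a row and 9 were over 1 CPM, and their summed level was 5206 to 5812 CPM in siControl and 4656 to 5742 CPM in siPSF. Fibroblast markers summed to 47.2 to 67.6 CPM in siControl and 44.1 to 50.8 CPM in siPSF, epithelial markers to 5.48 to 6.79 and 5.7 to 7.87 CPM, and none of the 5 blood and 5 glial markers had a row. These are bulk samples, in which a change in the share of cells and a change in RNA per cell cannot be told apart.

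The spliceosome removes introns from pre-mRNA. Its small nuclear ribonucleoproteins (snRNPs) each carry a small RNA on a ring of Sm or LSM proteins, the U2 snRNP adds the SF3A and SF3B complexes that hold the branch point, U2AF reads the 3′ splice site, and PRPF proteins serve mainly the U4/U6.U5 tri-snRNP and the steps that activate it. SR proteins bind exons and recruit this machinery, whereas hnRNPs coat nascent RNA and often act against exon inclusion. Many SR and hnRNP genes adjust their own mRNA through alternative exons that lead to its decay, and PSF itself is a splicing factor that is found with the U4/U6.U5 tri-snRNP.

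All 86 genes passed the filter on low counts, the lowest count of any of them in a library being 1151. In the siPSF libraries 13 of the 86 were higher and 2 were lower, 17.4% in all, against 14.9% of all genes tested. Higher calls made up 15.1% of these genes against 6.65% of all genes tested, and lower calls 2.33% against 8.27%. The median log2 fold change was 0.06, and that of all genes tested was 0.01. In 31 of the 86 (36.0%) the siPSF and siControl libraries did not overlap, 24 of them higher and 7 lower, against 34.4% of all genes. The called changes were small, from 0.24 to 0.64 on the log2 scale in size. After the deposited FPKM values (fragments scaled by exonic length and library size) were rescaled to the same sum per library, the split turned to 4 higher and 20 lower. In that fit all genes leaned the same way, with 463 higher and 3409 lower, 26.1% in all. On that scale the median of all genes tested was -0.16, so changes are given relative to it: the median of the 86 genes lay 0.05 above that of all genes on counts and 0.04 above it on rescaled FPKM. Of the 15 calls, 4 held in each of the 6 fits that left out a library, those of HNRNPA1, SNRPD1, SNRPD2 and SF3B6. The number of genes called fell to 5 without siControl replicate 2 and to 6 without siPSF replicate 1, where 7.54% and 9.92% of all genes tested were called. Reads can also be shared with other genes: in 14 of the 85 genes with a named canonical GENCODE transcript, 25% or more of its windows of 50 bases occur in transcripts of another gene. The 13 higher calls include HNRNPA1L2, U2AF1 and U2AF1L5, whose counts cannot be assigned with certainty.

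**Figure D1:**
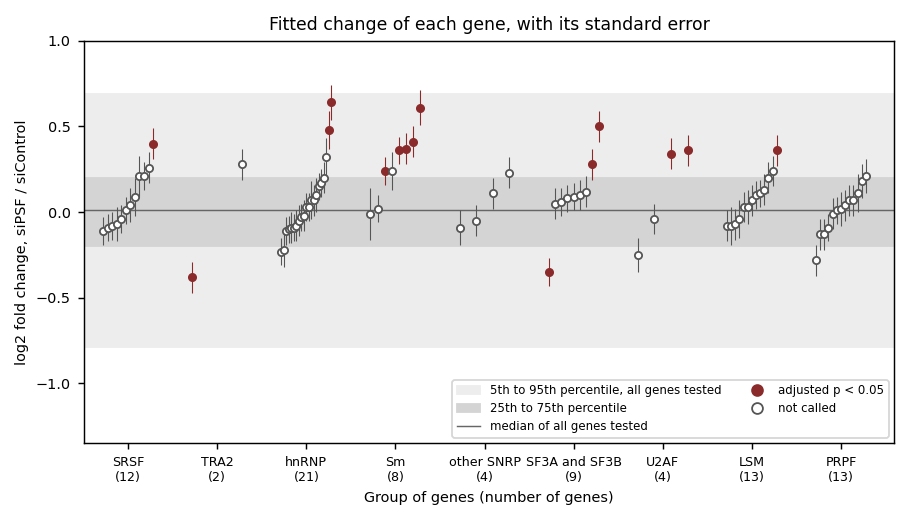
Fitted log2 fold change of each gene (siPSF over siControl, vertical axis, bars for the standard error), by group on the horizontal axis with the number of genes, filled where the edgeR adjusted p was under 0.05; grey bands give the 5th to 95th and 25th to 75th percentiles of all genes tested. Of the 8 Sm genes 5 are filled, of the 13 PRPF genes none, and all 86 genes lie within -0.38 to 0.64.

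Of the 14 SR genes, 1 rose and 1 fell (14.3%), against 14.9% of all genes tested. SRSF3, the smallest of the classical SR proteins and a factor in mRNA export, rose by a fold of 1.32. TRA2B, a splicing activator that binds GAA-rich exons, fell to 76.6% of its siControl level. The other 12 were not called, and the median log2 fold change of the group was 0.02. On rescaled FPKM the split was none higher and 5 lower, where SRSF1, SRSF2, SRSF4 and SRSF9 joined TRA2B. All genes leaned the same way there, with 463 higher and 3409 lower. Without siControl replicate 2 or siPSF replicate 1, TRA2B alone was called.

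On chromosome 6 (GRCh38, 36594362 to 36605600), SRSF3 (gene ID 6428) was at 127, 115 and 126 CPM in siControl and at 174, 149 and 163 CPM in siPSF. Every siPSF library was above every siControl library, with the difference between 149 and 127 CPM at the nearest pair. The log2 fold change was 0.40 (standard error 0.09, edgeR adjusted p = 0.0096), and the call was lost without siControl replicate 2 or without siPSF replicate 1, with an adjusted p of up to 0.063.

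TRA2B (gene ID 6434, chromosome 3, 185914558 to 185938014) had 208, 195 and 218 CPM in siControl and 166, 146 and 164 CPM in siPSF. The siPSF libraries were the 3 lowest, with no overlap. The log2 fold change was -0.38 (standard error 0.09, edgeR adjusted p = 0.011), and the call was lost only without siPSF replicate 2, at an adjusted p of 0.051. TRA2A, its paralogue with a similar binding preference, stood the other way, at 66.0, 65.3 and 71.0 CPM in siControl and 85.2, 73.8 and 87.4 CPM in siPSF. These groups did not overlap either, but the log2 fold change of 0.28 (standard error 0.09) had an edgeR adjusted p of 0.0508, which missed the threshold, where DESeq2's Wald test gave 0.036.

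The promoters of the SR genes that were called are shown as the sequence before the genes whose level changed. RefSeq (GRCh38.p14) gives a window from 250 bases before to 50 bases after the start for 75 of the 86 genes. Each was searched on both strands for 4 short motifs, none of which overlaps another in the windows printed: the ETS core, spelled CGGAAG; the CCAAT box, spelled as named; the GC box, spelled GGGCGG; and the TATA box, spelled TATAAA. Capitals mark a match or its reverse complement, and each window is written 5′ to 3′ in the direction of the gene. The window of SRSF3 (chr6:36594112-36594411, plus strand) holds CCAAT matches 70 and 55 bases before the start and a TATA match 30 bases before it, whereas that of TRA2B (chr3:185937965-185938264, minus strand) holds a single GC box match, 144 bases before the start.
SRSF3: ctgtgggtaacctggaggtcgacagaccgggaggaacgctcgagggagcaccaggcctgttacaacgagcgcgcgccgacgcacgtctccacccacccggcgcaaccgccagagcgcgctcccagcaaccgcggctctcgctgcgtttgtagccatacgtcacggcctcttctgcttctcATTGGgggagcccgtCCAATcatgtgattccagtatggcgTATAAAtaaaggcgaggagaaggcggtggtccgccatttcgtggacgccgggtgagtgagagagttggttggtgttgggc
TRA2B: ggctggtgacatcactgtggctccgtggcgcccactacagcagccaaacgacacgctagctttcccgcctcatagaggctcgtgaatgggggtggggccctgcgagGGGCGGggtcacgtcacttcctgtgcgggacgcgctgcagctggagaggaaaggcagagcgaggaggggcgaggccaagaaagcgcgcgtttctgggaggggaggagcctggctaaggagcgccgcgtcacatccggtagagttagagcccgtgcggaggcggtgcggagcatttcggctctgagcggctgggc
Among the 12 SR genes with a window, TATA matches were in 16.7%, CCAAT matches in 16.7%, GC box matches in 50.0% and ETS matches in 41.7%. The shares over all 27305 windows were 12.0%, 35.7%, 44.6% and 19.9%, and over the 11732 windows of protein-coding genes tested 5.86%, 36.1%, 69.1% and 31.3%. A match is a run of letters and was not tested as a site of binding.

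Several uncalled SR genes also kept their groups apart. SRSF8, a close relative of SRSF2, was at 44.2, 43.5 and 47.7 CPM in siControl and at 56.4, 51.9 and 54.0 CPM in siPSF (log2 fold change 0.26, standard error 0.09, edgeR adjusted p = 0.059, and 0.041 by DESeq2's Wald test). SRSF6, a regulator of tau exon choice, was at 193, 172 and 193 CPM in siControl and at 223, 208 and 212 CPM in siPSF (log2 fold change 0.21, standard error 0.08, edgeR adjusted p = 0.11). In both genes the siPSF libraries were the 3 highest. SRSF2, a classical SR protein of nuclear speckles, was at 261, 239 and 238 CPM in siControl and at 237, 232 and 223 CPM in siPSF (log2 fold change -0.09, standard error 0.08), so that only a small gap kept the groups apart. With these, 6 of the 14 SR genes (42.9%) did not overlap between the groups, against 34.4% of all genes tested.

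The remaining 8 SR genes overlapped. SRSF1, the founding member of the family, was at 316, 299 and 334 CPM in siControl and at 305, 287 and 290 CPM in siPSF (log2 fold change -0.11, standard error 0.08). SRSF12, a gene of low level, was at 11.8, 11.4 and 12.0 CPM in siControl and at 14.7, 11.3 and 14.7 CPM in siPSF (log2 fold change 0.21, standard error 0.12), with siPSF replicate 2 below all siControl libraries. SRSF11 had a log2 fold change of 0.09 and SRSF10, which acts as a repressor when it loses its phosphates, one of 0.04. SRSF7, a factor in mRNA export, was at 0.01, and SRSF9, SRSF5 and SRSF4 were at -0.04, -0.07 and -0.08. The standard errors of these 6 log2 fold changes were 0.08 to 0.11. Per length, the deposited FPKM was highest for SRSF2 (mean of all 6 libraries 102 FPKM) and SRSF9 (101 FPKM) and lowest for SRSF12 (3.2 FPKM). Summed over the 14 genes, the level was 1927, 1825 and 1979 CPM in siControl and 1990, 1848 and 1906 CPM in siPSF, and these ranges overlapped.

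**Figure D2:**
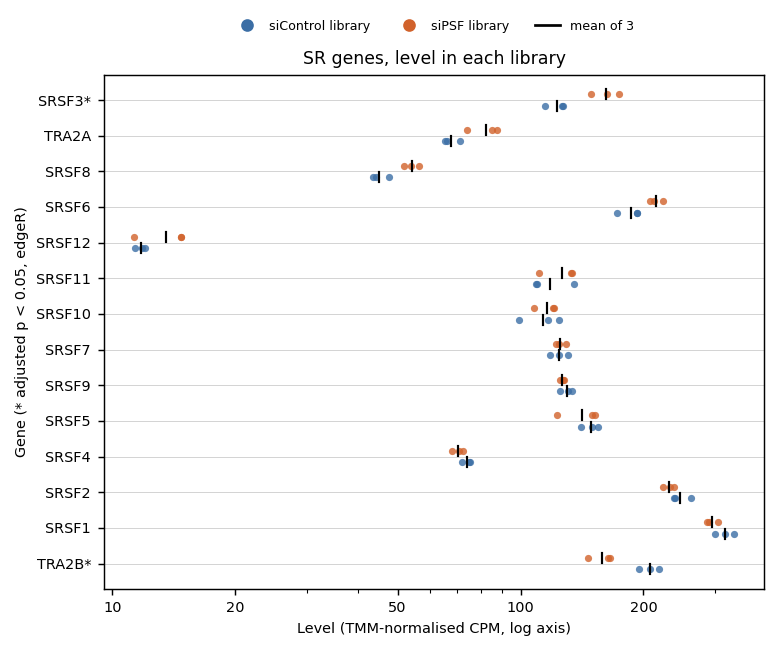
Level of each SR gene in every library (TMM-normalised CPM, log axis), siControl in blue and siPSF in orange, with the mean of 3 libraries as a bar and genes ordered by log2 fold change. SRSF3 at the top (115 to 127 CPM in siControl, 149 to 174 CPM in siPSF) and TRA2B at the bottom (195 to 218 and 146 to 166 CPM) are the called genes, marked with an asterisk.

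In the hnRNP group 2 of 21 genes rose and none fell by edgeR's test, 9.52% against 14.9% of all genes tested. At an unadjusted p under 0.05 were 7 of the 21, against 5861 of the 19694 genes tested. DESeq2's Wald test also called 2. The genes that rose were HNRNPA1, a repressor of exon inclusion that also shuttles mRNA to the cytoplasm, and HNRNPA1L2, a copy of it. The median log2 fold change of the 21 was 0.03. The groups did not overlap in 7 of them (33.3%), 5 higher and 2 lower, against 34.4% of all genes tested. Without siControl replicate 2, 1 gene was called and the median was -0.02, so that no common direction was seen. On rescaled FPKM the split was 1 higher and 6 lower, against 463 higher and 3409 lower of all genes.

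HNRNPA1 (gene ID 3178, chromosome 12 from 54280726 to 54287087) was at 835, 752 and 759 CPM in siControl and at 1152, 1132 and 1371 CPM in siPSF. The lowest siPSF library was at 1132 CPM and the highest siControl library at 835 CPM, so the groups stood well apart. Its fold of 1.56 (log2 fold change 0.64, standard error 0.10, edgeR adjusted p = 0.0012) was the largest of the 86 genes and ranged from 0.55 to 0.69 on the log2 scale when any library was left out. HNRNPA1L2 was at 21.4, 18.9 and 19.5 CPM in siControl and at 26.5, 25.3 and 31.4 CPM in siPSF, with no overlap (log2 fold change 0.48, standard error 0.11, edgeR adjusted p = 0.012). Without siControl replicate 2 or siControl replicate 3 this call was lost, with an adjusted p of up to 0.071.

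Counts on these copies cannot be assigned with certainty. Of the windows of 50 bases along the canonical GENCODE transcript of HNRNPA1L2, 100% also occur in transcripts of other genes, and 32.7% of those of HNRNPA1 do. The table also holds 25 pseudogene rows of HNRNPA1, of which 13 passed the filter on low counts. Of these 13, 6 were called higher and none lower, 11 had a log2 fold change above 0, and their median was 0.61, close to the 0.64 of HNRNPA1. Their counts together came to between 8.64% and 9.14% of the count of HNRNPA1 in each library. Of the 25 other rows with matching symbols, 15 passed the filter, and 0 were called by edgeR or DESeq2 or reached an unadjusted p under 0.05. How many reads HNRNPA1L2 and the rows named after HNRNPA1 share with it was not tested, and they are not taken here as independent of it. The counts of calls still include HNRNPA1L2, both in the 2 of 21 hnRNP genes and in the 13 higher of all 86.

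The other abundant hnRNPs showed small differences. HNRNPK, which binds C-rich RNA, was at 743, 740 and 770 CPM in siControl and at 778, 744 and 782 CPM in siPSF (log2 fold change 0.03, standard error 0.08). HNRNPA2B1, a relative of HNRNPA1, was at 735, 675 and 758 CPM in siControl and at 715, 662 and 663 CPM in siPSF (log2 fold change -0.09, standard error 0.09). HNRNPU, a nuclear matrix protein, was at 545, 499 and 583 CPM in siControl and at 539, 492 and 575 CPM in siPSF (log2 fold change -0.02, standard error 0.09). All 3 overlapped between the groups. Per length, HNRNPA1 (209 FPKM in siControl and 309 FPKM in siPSF, as means) stood below HNRNPK (252 FPKM) and HNRNPA2B1 (226 FPKM) in siControl, and above both in siPSF (244 and 201 FPKM), an order that was not tested.

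HNRNPH2 and HNRNPL came nearest to the threshold. HNRNPH2, which binds G-rich runs, was at 58.1, 55.7 and 71.2 CPM in siControl and at 80.4, 66.8 and 83.6 CPM in siPSF, and siPSF replicate 2 overlapped the siControl range (log2 fold change 0.32, standard error 0.11, edgeR adjusted p = 0.08). HNRNPL, which binds CA repeats, was at 318, 300 and 272 CPM in siControl and at 249, 250 and 258 CPM in siPSF (log2 fold change -0.23, standard error 0.08, edgeR adjusted p = 0.084). Its siPSF libraries were the 3 lowest, and 37.4% of the windows of its transcript also occur in transcripts of other genes. HNRNPLL, the paralogue of HNRNPL, was at 81.0, 68.7 and 74.9 CPM in siControl and at 71.0, 63.1 and 59.2 CPM in siPSF (log2 fold change -0.22, standard error 0.10, edgeR adjusted p = 0.16), with an overlap. On the deposited FPKM, limma called HNRNPL (log2 fold change -0.29), a call that the counts did not give, and of the 15 calls on counts it kept 13, without SF3B1 (log2 fold change 0.16, limma adjusted p = 0.22) and SNRPD3 (0.16, limma adjusted p = 0.13).

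HNRNPM, a splicing regulator that binds GU-rich RNA, was at 176, 170 and 162 CPM in siControl and at 187, 182 and 195 CPM in siPSF, with no overlap (log2 fold change 0.15, standard error 0.08, edgeR adjusted p = 0.22). HNRNPH3 was at 263, 235 and 265 CPM in siControl and at 309, 269 and 224 CPM in siPSF (log2 fold change 0.07, standard error 0.11), with its widest spread inside the siPSF group. Of the rest, named after their values were seen, HNRNPD and HNRNPF had log2 fold changes of 0.17 and 0.20 without overlap and HNRNPUL2 one of -0.09 without overlap, and none of these was called. The other 8 hnRNP genes overlapped, between -0.11 (HNRNPAB) and 0.10 (HNRNPDL).

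**Figure D3:**
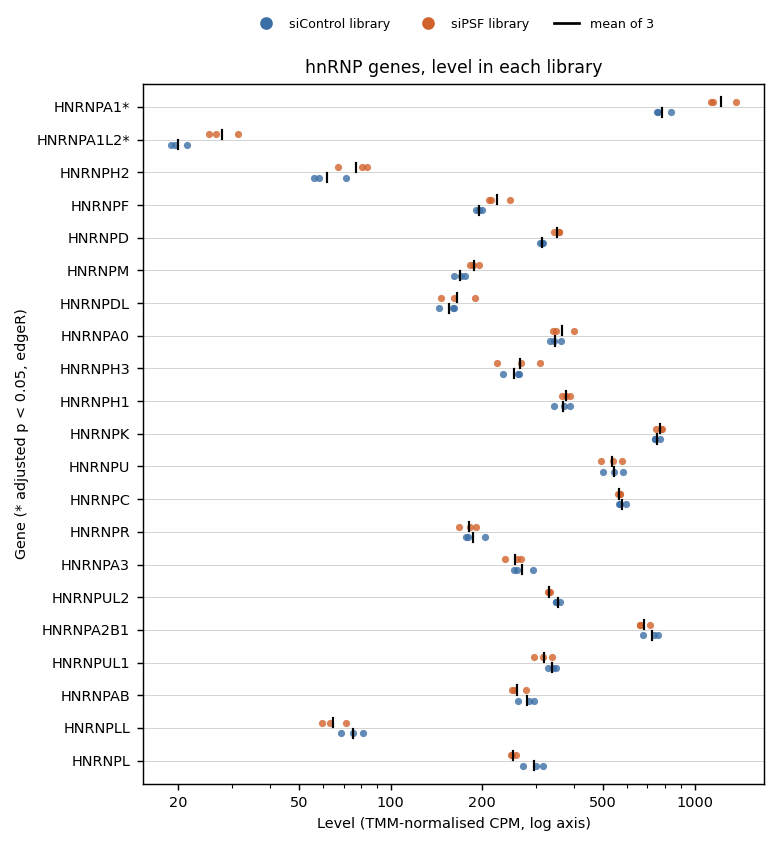
Level of each hnRNP gene in every library (TMM-normalised CPM, log axis), siControl in blue and siPSF in orange, bars for the means of 3 libraries, genes ordered by log2 fold change. HNRNPA1 (752 to 835 CPM in siControl, 1132 to 1371 CPM in siPSF) and HNRNPA1L2 (18.9 to 21.4 and 25.3 to 31.4 CPM) carry the asterisk of a call, and most other genes differ little between the groups.

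The snRNP and spliceosome core group held most of the calls, with 10 of 51 genes higher and 1 lower (21.6%), against 14.9% of all genes tested, 6.65% of them higher and 8.27% lower. Of the 8 Sm genes, which encode the ring around the spliceosomal RNAs, 5 rose: SNRPD1, SNRPD2, SNRPD3, SNRPE and SNRPF. Outside the Sm ring, SF3B6, SF3B1, U2AF1, U2AF1L5 and LSM7 rose and SF3B3 fell. None of the 13 PRPF genes and none of the 4 other SNRP genes was called by edgeR's test, although 1 gene of each of these sets was at an unadjusted p under 0.05 and DESeq2's Wald test called PRPF40B. The median log2 fold change of the 51 genes was 0.07. Summed over the 51, the level was 7227, 7112 and 6612 CPM in siControl and 7342, 7466 and 7320 CPM in siPSF, so the 3 siPSF sums lay above all siControl sums, by little. Summed FPKM overlapped, with 3420 in siControl replicate 1 and 3399 in siPSF replicate 3. The number called fell to 3 without siControl replicate 2, to 3 without siPSF replicate 1 and to 5 without siControl replicate 3. The shares of all genes called in these fits were 7.54%, 9.92% and 8.82%. On rescaled FPKM the split was 3 higher and 9 lower, against 463 higher and 3409 lower of all genes. The median there lay 0.05 above that of all genes, where it lay 0.06 above it on counts.

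SNRPD1 (gene ID 6632) was at 101, 75.4 and 80.5 CPM in siControl and at 134, 127 and 131 CPM in siPSF. Its siPSF libraries lay close together and above all siControl libraries, of which replicate 1 was the highest. The fold was 1.53 (log2 fold change 0.61, standard error 0.10, edgeR adjusted p = 0.0025), and the call held whichever library was left out. SNRPD2 (gene ID 6633, chromosome 19 from 45687454 to 45692316), the partner of SNRPD1 in the ring, was at 182, 183 and 149 CPM in siControl and at 222, 231 and 231 CPM in siPSF, again without overlap. Its log2 fold change was 0.41 (standard error 0.09, edgeR adjusted p = 0.012), and this call also held in all 6 such fits.

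SNRPE and SNRPF, which form a subcomplex with SNRPG before the ring closes, rose by similar amounts. SNRPE was at 95.7, 85.9 and 90.5 CPM in siControl and at 122, 110 and 118 CPM in siPSF (log2 fold change 0.36, standard error 0.08, edgeR adjusted p = 0.012). SNRPF was at 47.7, 43.8 and 39.3 CPM in siControl and at 57.9, 55.5 and 55.8 CPM in siPSF (log2 fold change 0.37, standard error 0.09, edgeR adjusted p = 0.019). Neither gene overlapped between the groups, but the calls were lost in 2 of the 6 fits without a library for SNRPE and in 3 for SNRPF, among them those without siControl replicate 2 and without siPSF replicate 1. SNRPG, named after its values were seen, was at 86.0, 83.0 and 78.6 CPM in siControl and at 85.7, 83.3 and 82.7 CPM in siPSF, with full overlap (log2 fold change 0.02, standard error 0.08). The difference between SNRPG and its partners was not tested.

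SNRPD3 was at 106, 105 and 103 CPM in siControl and at 123, 121 and 127 CPM in siPSF, with no overlap and a small spread. The difference was 0.24 on the log2 scale (standard error 0.08, edgeR adjusted p = 0.0496), and none of the 6 fits that left out a library kept the call. SNRPB was at 319, 282 and 228 CPM in siControl and at 319, 343 and 320 CPM in siPSF, where siControl replicate 1 reached the siPSF range (log2 fold change 0.24, standard error 0.11, edgeR adjusted p = 0.16). SNRPN, its neuronal paralogue from an imprinted locus, was at 145, 117 and 94.7 CPM in siControl and at 132, 125 and 96.4 CPM in siPSF, the widest spread of the 8 (log2 fold change -0.01, standard error 0.15), and 70.6% of the windows of its transcript are shared with other genes. The median of the 8 Sm genes was a log2 fold change of 0.30, and it lay between 0.26 and 0.37 above the median of all genes under each scaling and each left-out library. The number of Sm genes called ranged from 2 to 5 over the same settings, all higher, and was 2 without siControl replicate 2, without siPSF replicate 1, on rescaled FPKM and on FPKM without a filter on low values.

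In the SF3A and SF3B complexes 2 of 9 genes rose and 1 fell (33.3%), against 14.9% of all genes tested. SF3B6, the small protein that contacts the branch-point adenosine, was at 198, 168 and 173 CPM in siControl and at 269, 247 and 245 CPM in siPSF. The siPSF libraries were all well above the siControl range, the fold was 1.41 (log2 fold change 0.50, standard error 0.09, edgeR adjusted p = 0.0031), and leaving out any library kept the call. SF3B6 also had the highest deposited FPKM of the 51 genes, with a mean of 300 over the 6 libraries, before SNRPD2 (266) and SNRPB (259). SF3B1, the scaffold of the complex and a frequent target of mutation in blood cancers, was at 339, 292 and 334 CPM in siControl and at 403, 387 and 380 CPM in siPSF. It did not overlap either, but its log2 fold change of 0.28 (standard error 0.09, edgeR adjusted p = 0.0487) lost the call in 5 of the 6 fits without a library, all but that without siPSF replicate 3.

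SF3B3, a large subunit of the same complex and a relative of a DNA damage-binding protein, went down. Its level was 355, 364 and 343 CPM in siControl and 272, 294 and 268 CPM in siPSF, the 3 siPSF libraries being the lowest. The log2 fold change was -0.35 (standard error 0.08, edgeR adjusted p = 0.013), which left 78.5% of the siControl level, and the call was lost without siControl replicate 2 or without siPSF replicate 1 (adjusted p up to 0.062). The other 6 subunits were not called, and their log2 fold changes ran from 0.05 (SF3A1) to 0.12 (SF3B5).

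U2AF1, the small subunit that reads the AG of the 3′ splice site, was at 28.7, 27.8 and 25.6 CPM in siControl and at 36.1, 34.2 and 35.0 CPM in siPSF (log2 fold change 0.36, standard error 0.09, edgeR adjusted p = 0.019). U2AF1L5, a copy of it elsewhere on chromosome 21, was at 29.2, 28.4 and 26.0 CPM in siControl and at 35.5, 34.8 and 35.6 CPM in siPSF (log2 fold change 0.34, standard error 0.09, edgeR adjusted p = 0.024). Both had the 3 siPSF libraries highest, and their levels in each library were almost the same. The windows before their starts share 299 of 300 bases, and 98.7% of the windows of 50 bases of U2AF1 also occur in transcripts of another gene, so their counts cannot be assigned with certainty and are taken as 1 observation, which leaves 10 calls among 50 genes. These calls were lost in 3 of the 6 fits without a library for U2AF1 and in 4 for U2AF1L5. U2AF2, the large subunit, was at 422, 435 and 371 CPM in siControl and at 379, 400 and 416 CPM in siPSF, with overlap (log2 fold change -0.04, standard error 0.09). U2AF1L4, a shorter paralogue named after its values were seen, was at 26.4, 25.7 and 23.6 CPM in siControl and at 22.4, 20.8 and 20.2 CPM in siPSF, without overlap (log2 fold change -0.25, standard error 0.10, edgeR adjusted p = 0.095). On the deposited FPKM, limma did call U2AF1L4 (log2 fold change -0.33, limma adjusted p = 0.018). Of the windows of its transcript, 46.5% also occur in transcripts of another gene.

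The promoters of 3 genes of this group that rose are printed to show what those windows share and where they differ, with the motif matches in capitals as above. That of SF3B6 (chr2:24076277-24076576, minus strand) holds 3 ETS matches, 158, 128 and 19 bases before the start, and a GC box match 180 bases before it. That of SNRPF (chr12:95858702-95859001, plus strand) holds CCAAT matches 75 and 50 bases before the start, a GC box match 241 bases before it and no ETS match. That of U2AF1 (chr21:43107521-43107820, minus strand) holds 4 GC box matches and none of the others.
SF3B6: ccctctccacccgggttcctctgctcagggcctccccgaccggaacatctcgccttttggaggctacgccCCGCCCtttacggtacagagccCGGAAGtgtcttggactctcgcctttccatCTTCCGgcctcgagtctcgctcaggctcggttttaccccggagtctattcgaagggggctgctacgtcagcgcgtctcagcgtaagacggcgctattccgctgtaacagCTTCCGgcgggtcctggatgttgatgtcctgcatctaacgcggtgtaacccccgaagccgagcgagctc
SNRPF: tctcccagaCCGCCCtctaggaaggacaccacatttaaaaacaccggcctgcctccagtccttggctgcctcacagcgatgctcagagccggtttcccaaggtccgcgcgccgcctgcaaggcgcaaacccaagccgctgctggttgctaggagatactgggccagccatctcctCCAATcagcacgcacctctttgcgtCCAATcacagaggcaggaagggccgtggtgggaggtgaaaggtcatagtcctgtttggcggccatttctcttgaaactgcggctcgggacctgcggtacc
U2AF1: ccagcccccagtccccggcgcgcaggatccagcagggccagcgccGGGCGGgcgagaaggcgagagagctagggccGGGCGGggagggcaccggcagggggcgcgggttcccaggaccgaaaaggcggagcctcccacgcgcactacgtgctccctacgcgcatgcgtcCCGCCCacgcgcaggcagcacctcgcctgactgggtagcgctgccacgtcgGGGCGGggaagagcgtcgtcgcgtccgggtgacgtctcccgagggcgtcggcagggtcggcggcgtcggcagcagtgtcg
The GC box was thus the motif found in all 3. Among the 43 snRNP and core genes with a window, 26 (60.5%) held an ETS match, against 40.0% of the 20 hnRNP windows, 19.9% of all 27305 windows and 31.3% of the 11732 windows of protein-coding genes tested. For the CCAAT box the order was another: 65.0% of the hnRNP windows held it, 39.5% of the snRNP and core windows and 36.1% of the protein-coding ones. GC box matches were in 65.3% and TATA matches in 9.33% of the 75 windows, against 69.1% and 5.86% of those protein-coding windows. These shares describe letters in a window and were not set against the changes in level.

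The 13 LSM genes form the rings of U6 snRNA and of cytoplasmic decay complexes or belong to relatives of them. Among them LSM7 alone was called (7.69%, against 14.9% of all genes tested). It was at 55.1, 50.1 and 44.4 CPM in siControl and at 63.5, 62.8 and 65.5 CPM in siPSF, with no overlap (log2 fold change 0.36, standard error 0.09, edgeR adjusted p = 0.025), and the call was lost in 3 of the 6 fits without a library. The other 12 had log2 fold changes from -0.08 to 0.24. Among them LSM14A, LSM5 and LSM14B, named after their values were seen, did not overlap between groups, and their log2 fold changes were 0.24, 0.20 and 0.10.

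Among the PRPF genes, PRPF8, the protein at the catalytic heart of the spliceosome, was at 651, 714 and 665 CPM in siControl and at 587, 660 and 608 CPM in siPSF, which overlapped (log2 fold change -0.13, standard error 0.09, edgeR adjusted p = 0.34). PRPF40B, a relative of a yeast factor that bridges the splice sites, was at 29.7, 27.7 and 27.0 CPM in siControl and at 23.1, 23.9 and 22.8 CPM in siPSF. Here the groups did not overlap (log2 fold change -0.28, standard error 0.09, edgeR adjusted p = 0.059, and 0.032 by DESeq2's Wald test). Of the windows of the PRPF40B transcript, 38.6% also occur in transcripts of FMNL3. The other 11 PRPF genes lay between -0.13 and 0.21 on the log2 scale, and of these PRPF39 did not overlap between the groups. The 4 SNRP genes outside the Sm ring, which encode U1 and U2 proteins, had log2 fold changes of 0.23 (SNRPB2), 0.11 (SNRPC), -0.05 (SNRPA) and -0.09 (SNRPA1), and none was called.

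**Figure D4:**
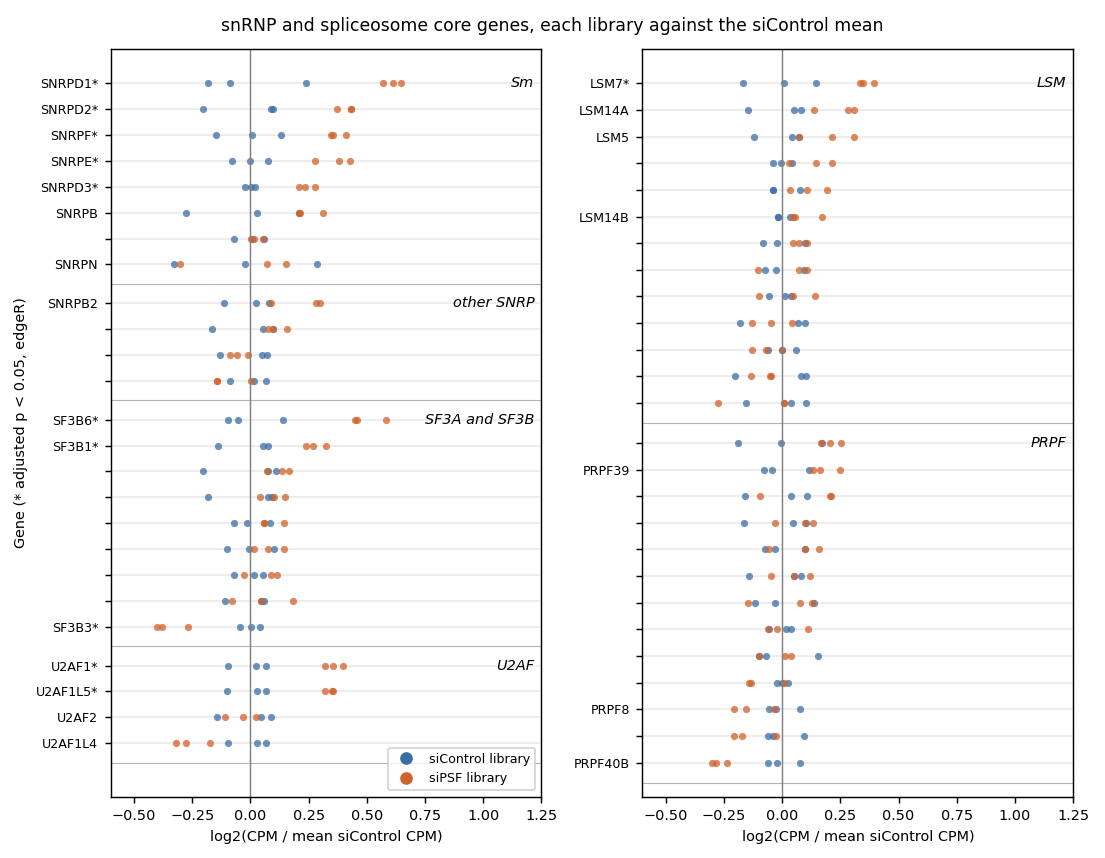
Level of each snRNP and spliceosome core gene in every library as log2 of its CPM over the mean siControl CPM (horizontal axis), siControl in blue and siPSF in orange, by family, with an asterisk at each called gene and the names of genes that were chosen by rule or did not overlap between the groups. The orange points of 5 Sm genes, SF3B6, SF3B1, U2AF1, U2AF1L5 and LSM7 lie right of the blue ones, those of SF3B3 lie left, and most LSM and PRPF genes overlap.

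Gene length was set beside these changes, since the length of a gene went with its change in the whole table. Protein-coding genes under 10 kb had a median log2 fold change of 0.08 with 9.91% called higher, and those of 100 kb or more one of -0.17 with 2.67% called higher and 25.1% called lower. The genes of the splicing machinery were shorter than most: their median length was 13.6 kb for the SR, 14.8 kb for the hnRNP and 16.2 kb for the snRNP and core genes, against 30.3 kb for all protein-coding genes tested. Among the 23 members under 10 kb, 6 were called higher and none lower, with a median log2 fold change of 0.12. Of the 32 members from 10 to 20 kb, 4 were called higher and none lower (median 0.04), where 8.64% of all protein-coding genes of that length were called higher. The 24 members from 20 to 50 kb held 3 higher calls and 1 lower call, where 7.13% of all protein-coding genes of that length were higher and 4.92% lower. The 6 members from 50 to 100 kb held 1 lower call, where 4.79% of such genes were higher and 7.68% lower. The 13 genes that rose had a median length of 11.2 kb, TRA2B measured 23.5 kb and SF3B3 53.9 kb. The part of gene length in the changes was not tested.

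**Figure D5:**
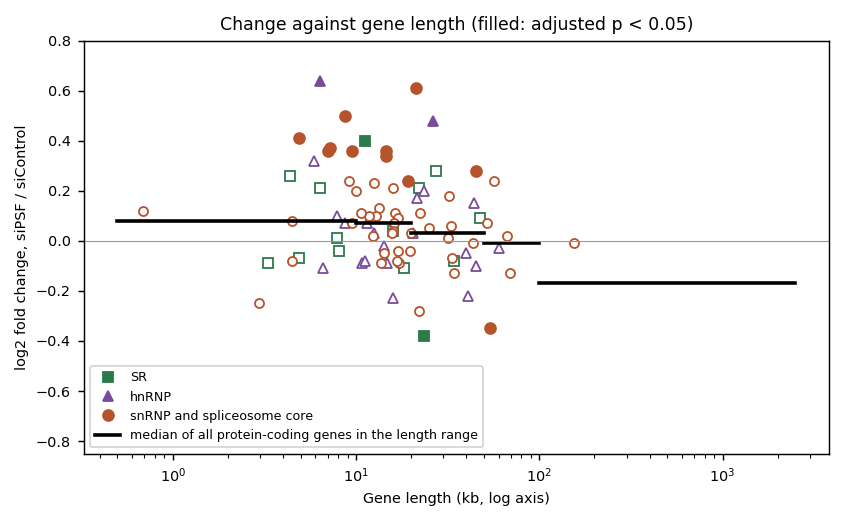
Log2 fold change of each member (siPSF over siControl) against gene length in kb on a log axis, by group, filled where called; black lines give the median of all protein-coding genes in each length range. The lines fall from 0.08 under 10 kb to -0.17 at 100 kb or more, where 1 member lies (SNRPN), and filled points above 0 lie between 4.86 and 45.3 kb.

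Genes of the pathway with other names were counted from lists. Of 9 kinases that act on SR proteins and their relatives, SRPK2, which phosphorylates SR proteins in the cytoplasm, fell, at 87.2, 89.0 and 108 CPM in siControl and 72.4, 59.8 and 81.8 CPM in siPSF (log2 fold change -0.41, standard error 0.12, edgeR adjusted p = 0.039). Its gene is 285 kb long, and the call held in 2 of the 6 fits without a library. It was the only call in that list (11.1%, against 14.9% of all genes tested). Of 7 genes for transport and coactivation of SR proteins and 19 for other snRNP proteins none was called, with 1 and 4 of them at an unadjusted p under 0.05 in edgeR's test. The 10 genes of the SMN complex, which loads the Sm ring, had no call, and 9 of them had a log2 fold change above 0, with a median of 0.16, 1 of them at an unadjusted p under 0.05. DESeq2's Wald test called 0 genes in these 3 lists too.

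Of 21 genes of spliceosomal helicases and the Prp19 complex, 3 rose and 1 fell (19.0%), against 14.9% of all genes tested. Their median log2 fold change was 0.12. SYF2, a component of the active spliceosome, rose from 29.4, 28.6 and 30.4 CPM in siControl to 42.0, 39.6 and 44.5 CPM in siPSF (log2 fold change 0.51, standard error 0.09, edgeR adjusted p = 0.0026), the only one of the 4 whose call held in all 6 fits. ISY1 and PLRG1, both of the Prp19-related complex, had log2 fold changes of 0.32 and 0.30 (edgeR adjusted p = 0.027 and 0.029), and the calls held in 1 and 2 of the 6 fits without a library. PLRG1 was named after its values were seen. DDX39B, the helicase that loads U2 snRNP with U2AF2 and couples splicing to export, was at 461, 455 and 368 CPM in siControl and at 364, 296 and 296 CPM in siPSF, with a small gap between the groups (log2 fold change -0.43, standard error 0.11, edgeR adjusted p = 0.025), and its call held in 3 of those fits.

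Of 20 RNA-binding proteins of the hnRNP class with other names, 1 rose and 2 fell, a share close to the 14.9% of all genes tested. PSPC1, a paralogue of PSF in paraspeckles, rose from 50.2, 39.4 and 41.4 CPM to 93.5, 92.6 and 98.7 CPM (log2 fold change 1.12, standard error 0.10, edgeR adjusted p = 5e-05). PCBP3, a poly(C)-binding protein encoded by a gene of 299 kb, fell from 105, 107 and 91.6 CPM to 50.9, 48.8 and 34.0 CPM (log2 fold change -1.18, standard error 0.14, edgeR adjusted p = 0.00025). Both differences were larger than any among the 86 members, and in both genes the siPSF and siControl libraries did not overlap. RALY, a relative of HNRNPC, fell by 0.32 on the log2 scale (edgeR adjusted p = 0.03), a call that held in 2 of the 6 fits without a library. NONO, another paraspeckle protein, named after its values were seen, was not called (log2 fold change 0.21, standard error 0.08, edgeR adjusted p = 0.1). It was at 719, 728 and 677 CPM in siControl and at 805, 810 and 841 CPM in siPSF, without overlap. Of 15 genes of the exon junction complex and of nonsense-mediated decay, RBM8A rose (log2 fold change 0.32, edgeR adjusted p = 0.017), and the decay factors SMG1 and SMG6 fell (-0.36 and -0.35, edgeR adjusted p = 0.026 and 0.015). Of these, the calls of RBM8A and SMG1 held in 3 and that of SMG6 in 5 of those fits. The share called in that list was above the 14.9% of all genes tested, a difference that was not tested. The median log2 fold change of that list was -0.03.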

How the data were processed

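SH-SY5Y libraries of siControl and siPSF (3 each) were measured by RNA-seq. The authors deposited raw read counts and FPKM values per gene and library. Per the methods, poly(A) libraries were sequenced as paired reads, rRNA reads removed with Bowtie 2, and reads mapped with TopHat to hg38 and counted on RefSeq, whereas the submitters' processing notes name Trimmomatic, HISAT2 2.1.0, StringTie 2.1.3b and GRCh38. The use of strand in counting is not given in the sources used here, so overlapping genes are uncertain. The smallest count is 1, so genes without a read in a library are not analysed here.

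Counts were filtered with edgeR's filterByExpr (19694 genes left), normalised by TMM, and compared by edgeR's quasi-likelihood F-test (no block) with Benjamini-Hochberg correction. Alternatives were DESeq2, other filters and thresholds, leaving out each library, a replicate block, and limma on log2(FPKM + 0.5), which has that pseudocount (or 0.1) and a minimum mean FPKM of 0.5. U2AF1 and U2AF1L5 were counted once after the data were seen. The members and all lists were chosen with earlier results of these data known. Named are all SR genes, and among the others those called, the 3 of highest FPKM, the 2 largest rises and falls, the uncalled gene nearest to the threshold, a set of well-known members, and up to 3 called genes per pathway list. Further genes were picked with their values in view and are marked so. Gene positions are from RefSeq GRCh38.p14, and transcripts from GENCODE. Versions were edgeR 4.0.16, DESeq2 1.42.0 and limma 3.58.1 on R 4.3.3, and Python 3.11.15. Library totals lay between 101540520 and 132420931 counts, so counting error is small beside the spread between libraries.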

Additional observations from a re-analysis of the deposited data

How the results depend on the processing

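Leaving out 1 library at a time gave 1 to 2 calls among the SR genes, 1 to 3 among the hnRNP genes and 3 to 10 among the snRNP and core genes, where all 6 libraries gave 2, 2 and 11. The share of all genes called ranged from 7.54% to 15.8% in these fits, against 14.9% with all 6 libraries. The lowest counts came without siControl replicate 2 and without siPSF replicate 1 (3 snRNP and core genes each). The median log2 fold change ranged from -0.025 to 0.051 for hnRNP genes and from 0.035 to 0.094 for snRNP and core genes in the same fits. At an adjusted p under 0.01 the calls were 1 SR, 1 hnRNP and 2 snRNP and core genes, where 6.25% of all genes were called. Under 0.10 there were 4 SR, 4 hnRNP and 14 snRNP and core genes, where 22.3% of all genes were called. DESeq2's Wald test called 4 SR, 2 hnRNP and 12 snRNP and core genes, and 18.3% of all genes. With limma on log2(FPKM + 0.5) the medians were -0.052 (SR), -0.046 (hnRNP) and 0.001 (snRNP and core), the same with a pseudocount of 0.1 and without a filter, against -0.059, -0.065 and -0.032 for all genes. Without that filter 1 SR, 2 hnRNP and 7 snRNP and core genes were called, and 10.4% of all genes. Rescaled FPKM gave medians of -0.164, -0.16 and -0.113, with 5 SR and 7 hnRNP genes called, 11 of these 12 lower. Of all genes 26.1% were called there, 463 higher and 3409 lower, and their median was -0.161. The cause of these shifts was not tested. SFPQ stayed past the threshold under all 14 alternatives of the fit, and none of the 50 other named genes turned a called direction. Calls were lost, however, in 17 of these 50 without siControl replicate 2 and in 14 without siPSF replicate 1. On rescaled FPKM 11 lost their call and 9 others gained one.

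Whether the replicate numbers pair the samples was not settled. The correlations of their deviations from the group means were -0.02, 0.27 and 0.11, and 3 libraries per group are too few to decide it. With the replicate number as a block, 3 SR, 3 hnRNP and 12 snRNP and core genes were called, which kept all 15 calls, and 15.4% of all genes were called. Of the 3 siControl libraries 1 correlated best with its own number. Counting U2AF1 and U2AF1L5 once left 10 calls.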

Other observations

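FPKM per count, which shows the exonic length behind a deposited FPKM value, shifted between the groups by more than 0.1 on the log2 scale in 1 of the 86 genes, PRPF18, which encodes a factor of the second step of splicing, and in 4.36% of 13115 genes whose count was 200 or more in each library. In PRPF18 the ratio, as a percent of its siControl mean, was 110, 92.4 and 97.2 in siControl and 126, 120 and 131 in siPSF, so the siPSF libraries were the 3 highest. Its log2 fold change was -0.13 on counts and 0.11 on FPKM, and neither was called. PRPF18 was chosen after its values were seen, and the cause was not tested.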
